A study of Mus musculus with 78 samples.

Results

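Nascent transcription was compared between mouse embryonic stem cells kept in DMSO and the same cells treated for 2 h with dTAG-V1, a degrader of tagged ZFP143. All cells were of the E14TG2a line and carried both copies of Zfp143 fused to an FKBP-2xHA-P2A-GFP cassette, so the controls had the tagged protein too and no untagged cells are in the comparison. dTAG-V1 was given at 500 nM, and labelling was with 2 mM 4-thiouridine for 10 min, after which labelled RNA was purified and sequenced (TT-seq), so that a count reflects RNA made in the last minutes before harvest. There were 2 biological replicates of each group, which makes 4 of the 78 samples of the series, and their total counts were 9721568 and 13255099 in DMSO and 12887432 and 16532077 after 2 h. The genes described are all those whose count exceeded 10 in 2 or more of the 4, which were 18102 of the 55401 genes in the table. Just inside this limit stood 299 genes whose second-highest count was 11, and just outside it 372 genes whose second-highest count was 10. Values per library are CPM, the count relative to the library total after TMM scaling, and a gene was called lower or higher at an adjusted p under 0.05 with an absolute log2 change above 0.5 in edgeR's quasi-likelihood test.

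ZFP143 (ZNF143 in human) is a zinc finger activator that binds close to the transcription start sites (TSSs) of genes with housekeeping roles. Its binding elements, often called SBS, come in more than 1 form, and the letters ACTACA belong to a form of them. The factor is known for promoters of small nuclear RNA genes and of many protein-coding genes, among them nuclear genes for mitochondrial proteins. A nascent readout differs from mRNA levels in that it does not wait for old mRNA to decay.

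Promoter letters are printed for a few of the genes described below, because ACTACA was searched in all of them. The first set holds the 100 bases upstream of the TSS of 3 genes that fell steeply and carried a ZFP143 peak, in which capitals mark ACTACA or its reverse complement TGTAGT, or CCCANNATGC or its reverse complement, and every window reads 5′ to 3′ on the strand of the gene in mm10.
Rpp30 (chr19:36083616-36083715, plus strand): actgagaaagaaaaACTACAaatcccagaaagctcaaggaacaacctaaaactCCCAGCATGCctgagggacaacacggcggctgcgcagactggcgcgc
Mpi (chr9:57552764-57552863, minus strand): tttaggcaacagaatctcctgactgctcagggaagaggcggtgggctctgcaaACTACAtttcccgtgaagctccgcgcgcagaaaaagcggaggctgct
Ube2d1 (chr10:71285263-71285362, minus strand): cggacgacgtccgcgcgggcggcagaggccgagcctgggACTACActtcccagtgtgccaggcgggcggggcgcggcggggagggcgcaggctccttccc
The next windows, with the same marking, belong to Cpox and Hace1, which fell although the ZFP143 peak list used here has no peak within 50 kb of their starts, and to Acly and Pank3, which rose and carried a peak.
Cpox (chr16:58670192-58670291, plus strand): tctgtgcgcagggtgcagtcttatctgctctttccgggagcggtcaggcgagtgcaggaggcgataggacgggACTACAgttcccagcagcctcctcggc
Hace1 (chr10:45577729-45577828, plus strand): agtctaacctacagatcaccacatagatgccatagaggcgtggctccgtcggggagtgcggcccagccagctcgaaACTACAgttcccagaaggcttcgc
Acly (chr11:100528001-100528100, minus strand): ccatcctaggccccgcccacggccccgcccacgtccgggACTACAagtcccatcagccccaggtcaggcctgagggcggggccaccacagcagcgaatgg
Pank3 (chr11:35769384-35769483, plus strand): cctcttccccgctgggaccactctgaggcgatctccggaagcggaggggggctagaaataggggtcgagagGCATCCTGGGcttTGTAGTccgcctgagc
The last windows hold 30 bases downstream of the TSS of genes that rose. In these genes the letters nearest to the TSS lay inside the transcribed stretch.
1700034P13Rik (chr1:9748662-9748691, plus strand): ctggatctctttTGTAGTttgtcccccatt
Gm26901 (chr1:7397647-7397676, minus strand): catgctgggagtTGTAGTtctgtcccagtt
Ubxn8 (chr8:33641753-33641782, minus strand): cgcgcgcttttgACTACAatccccagaatc
Rabl3 (chr16:37540080-37540109, plus strand): caagaccttaaaACTACActtcccagagga
The ACTACA letters began 187 bases downstream of the TSS in Rabl3, 197 in Ubxn8, 193 in 1700034P13Rik and 131 in Gm26901.

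The labels and the cells were checked first. Zfp143 itself is no readout of the degradation, since the degrader acts on the protein. Its nascent transcription was 70.9 and 73.9 CPM in DMSO and 164 and 164 CPM after 2 h, and the gene was called higher, by 1.18 ± 0.11 (SE) on the log2 scale (adjusted p = 0.000851, edgeR). The list of peaks has none at the start of Zfp143. All 8 markers of pluripotent cells were measured and none was called, and their summed level was 3545 and 3800 CPM in DMSO and 4071 and 3640 CPM after 2 h. Pou5f1 stood at 82.1 and 84.9 CPM in DMSO and at 67.5 and 77.0 CPM after 2 h, Esrrb at 1323 and 1281 against 1533 and 1221 CPM. Of 20 markers of other cell types 11 passed the count limit, none was called, and their summed level was 131.9 and 145.6 CPM in DMSO and 132.6 and 185.6 CPM after 2 h.

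At 2 h the test called 472 genes lower (2.61% of the 18102 tested) and 33 higher (0.182%), together 2.79%. The median change of all genes was 0.01 on the log2 scale, and the median of the called genes was -1.46 among the lower and 1.18 among the higher ones. Of the lower genes 350 fell by more than 2-fold, 130 by more than 4-fold and 37 by more than 8-fold, and 18 of the higher genes rose by more than 2-fold. Replicate numbers paired the libraries, and with the replicate number as a block 736 genes (4.07%) were lower and 113 (0.624%) higher, including 471 of the 472 and all 33. The counts moved when a single library was left out. Without the second DMSO library 1.22% of the genes were lower and 13 genes higher, without the first 2 h library 0.679% and 11 genes, and without the second 2 h library 0.757% and 10 genes, while without the first DMSO library 1.78% were lower and 41 genes higher. All 472 and all 33 kept their direction in each of these fits, and 101 and 9 were called in every one of them. The direction could hardly turn, since in every called gene both 2 h libraries lay beyond both DMSO libraries. That was so, in either direction, for 39.7% of all tested genes. Some genes passed the count limit through a single group and so had to differ. These were 76 through DMSO alone, 30 of them called lower, and 389 through 2 h alone, 2 of them called higher.

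**Figure D1:**
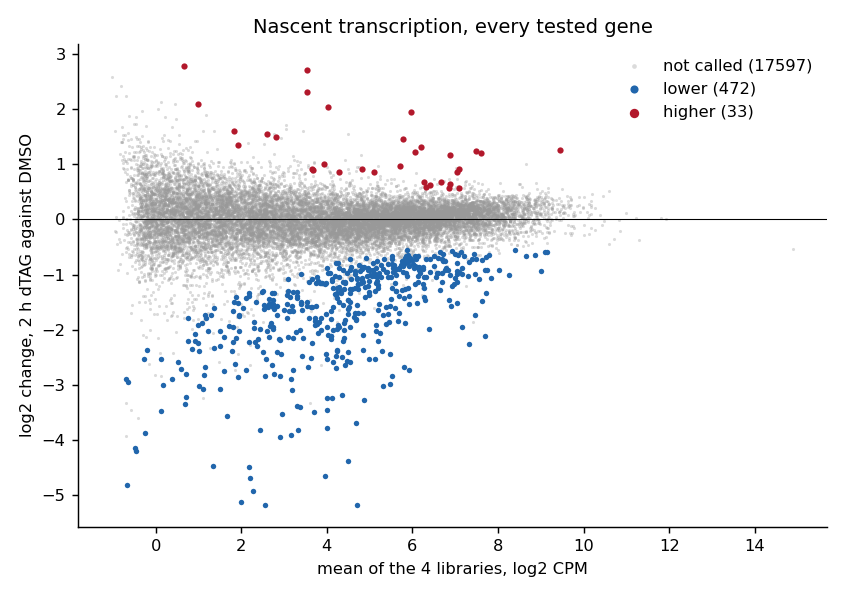
Each point is 1 of the 18102 tested genes, with the mean of the 4 libraries in log2 CPM on the horizontal axis and the log2 change of 2 h dTAG against DMSO on the vertical axis. The 472 genes called lower reach changes below -5, whereas the 33 called higher stay under 3.

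Among genes with a mean count of at least 100, the steepest decreases were in genes of several pathways. Usp40, a deubiquitinase gene (chr1:87945119-88008551, minus strand), was at 47.1 and 54.9 CPM in DMSO and at 1.28 and 1.50 CPM after 2 h, a log2 change of -5.18 ± 0.27 (SE, n = 2 libraries per group, edgeR adjusted p = 0.000130). Rbm41, which encodes an RNA-binding protein (chrX:139889511-139998595, minus strand), was at 23.1 and 37.1 CPM in DMSO and 1.04 and 1.32 CPM after 2 h (-4.65 ± 0.37). Zfp111, a zinc finger gene (chr7:24193947-24211443, minus strand), went from 45.4 and 40.0 CPM to 2.09 and 1.98 CPM (-4.39 ± 0.26). In each of them both depleted libraries lay more than 10-fold below both controls. Rpp30, a protein subunit of RNase P and RNase MRP, the enzymes that trim tRNA and rRNA precursors (chr19:36083716-36104777, plus strand), fell from 42.4 and 53.5 CPM to 3.45 and 3.89 CPM (-3.70 ± 0.21). Mpi, mannose phosphate isomerase, which feeds mannose into glycosylation (chr9:57544256-57552763, minus strand), fell from 27.2 and 20.4 to 2.33 and 1.92 CPM (-3.49 ± 0.32). Cox7c, a nuclear-encoded subunit of cytochrome c oxidase (chr13:86044816-86046904, minus strand), fell from 54.3 and 51.8 to 3.85 and 6.95 CPM (-3.28 ± 0.29). In all 6 both depleted libraries lay below both controls, which the choice of these genes required and which, in either direction, held for 39.7% of all tested genes.

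The rest of the 14 steepest decreases among genes with a mean count of at least 100 lay between -3.91 and -3.24. They were Zfp862-ps, Sult6b1, a sulfotransferase gene, Zup1, a deubiquitinase gene, Ube2d1, a ubiquitin-conjugating enzyme gene, 2210016L21Rik, B230118H07Rik, Zfp354c and Mrps25, a mitochondrial ribosomal protein gene. Their adjusted p ranged from 0.000193 for Zup1 to 0.00410 for Zfp354c (edgeR). Reads that fit Zfp354c and its paralogs alike were not counted, since only uniquely mapped reads were kept, so its value is less certain. All 14 kept their call without any 1 of the 4 libraries. The plot of single libraries shows the 2 groups apart in each, as the choice of these genes required.

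**Figure D2:**
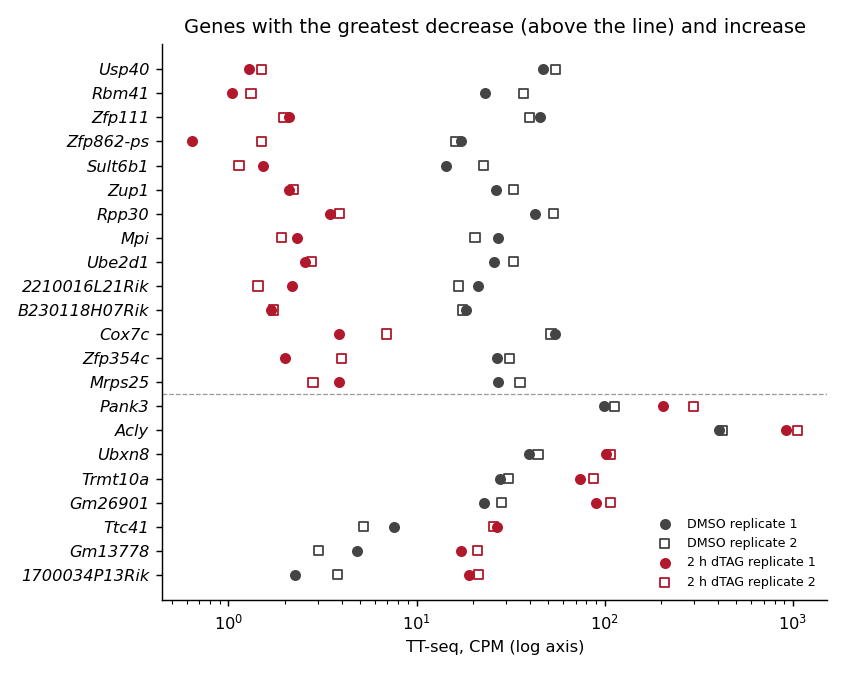
TT-seq level in CPM (log axis) of the 14 genes with the greatest decrease, above the dashed line, and the 8 with the greatest increase, below it, with filled circles for replicate 1 and open squares for replicate 2, grey for DMSO and red for 2 h dTAG. Both sets hold genes with a mean count of at least 100. Usp40 drops from 47.1 and 54.9 to 1.28 and 1.50 CPM, and 1700034P13Rik goes from 2.26 and 3.78 to 19.0 and 21.4 CPM.

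Genes that rose were few. Those with the steepest increase were again chosen among genes with a mean count of at least 100 whose groups did not overlap. Acly, ATP citrate lyase, which makes acetyl-CoA for lipid synthesis (chr11:100476353-100528000, minus strand), had the highest level of the 8 with the steepest increase. It was at 405 and 424 CPM in DMSO and at 923 and 1055 CPM after 2 h (1.25 ± 0.14, SE, edgeR adjusted p = 0.00173). Pank3, a pantothenate kinase at the entry of coenzyme A synthesis, was at 98.8 and 113 CPM and then at 203 and 297 CPM (1.24 ± 0.20, adjusted p = 0.0112). Its call was lost without the first DMSO library (1.14), the second DMSO library (1.35) or the second 2 h library (0.94). Ubxn8 rose from 39.8 and 44.2 to 102 and 107 CPM (1.31 ± 0.12), and Trmt10a, a tRNA methyltransferase gene, from 27.7 and 30.9 to 74.3 and 87.0 CPM (1.46 ± 0.15). Ttc41 went from 7.62 and 5.22 to 26.7 and 25.7 CPM (2.04 ± 0.20), and the non-coding genes Gm26901, Gm13778 and 1700034P13Rik rose by 1.95, 2.30 and 2.72 on the log2 scale. Apart from Pank3, the calls of the 8 held without any 1 library.

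Binding at the promoter was taken from the ZFP143 peak list, made by ChIP-seq in the tagged cells, where a gene counted as bound if a peak overlapped 2000 bp upstream to 1000 bp downstream of a TSS with its centre within 2000 bp of it. The numbering of the peak names has gaps, so the list may not hold every peak that was called, and an unbound gene is one without a peak of this list. Of the 18102 tested genes 2359 were bound (13.0%), but of the 472 lower genes 415 (87.9%) and of the 33 higher genes 26 (78.8%). Read the other way, 415 of the 2359 bound genes were lower (17.6%) and 26 higher (1.10%), against 30 (0.224%) and 7 (0.0523%) of the 13385 protein-coding and long non-coding genes without a peak. The median log2 change was -0.28 over the bound and 0.04 over the unbound genes, and 1765 of the bound genes (74.8%) had a negative value. The other 1918 bound genes were not called in either direction. The bound share of the higher genes was not stable. With the replicate block it was 41.6% (47 of 113), in DESeq2 58.5% (31 of 53), without a count filter 30.4% (42 of 138) and without the first DMSO library 41.5% (17 of 41), while that of the lower genes was 84.1% (619 of 736) with the block and between 79.3% and 93.1% in all alternative fits. Without the second DMSO library 199 bound genes were lower, without the first 2 h library 112 and without the second 126, and the higher ones fell to 17 without the first DMSO library, 11 without the second, 10 without the first 2 h library and 9 without the second. The share of all counts that fell in bound genes was 19.3% and 20.2% in the DMSO libraries and 17.4% and 17.7% after 2 h. This difference had an exact two-sided permutation p of 0.333, the smallest that 2 libraries against 2 can give.

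The calls followed the peaks in height and place. Among the bound genes the share called lower was 4.43% in the quintile with the lowest peak enrichment (fold over input from 4.35 to 14.3), 11.7%, 18.1% and 19.9% in the next 3 and 33.9% in the quintile with the highest (66.1 to 345). The median log2 change moved from -0.12 in the first to -0.48 in the last quintile. With the peak centre under 50 bp from the TSS 25.7% of 905 genes were lower, at 50 to 100 bp 19.2% of 459, at 100 to 250 bp 15.0% of 548, at 250 to 500 bp 3.35% of 209 and beyond that 2.10% of 238. Genes with a peak centre under 250 bp had a median of -0.34 and those at 250 to 2000 bp a median of -0.03. Enrichment was also higher at the near peaks, with a median of 38.6 against 22.0, so height and distance are not independent. These shares are descriptions over genes, which are not replicates.

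**Figure D3:**
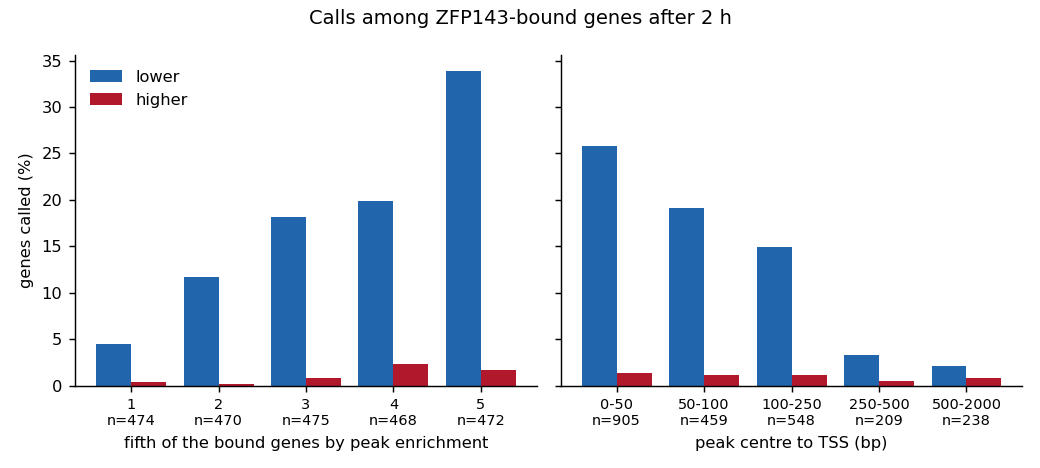
Share of ZFP143-bound genes called lower (blue) or higher (red) after 2 h, by quintile of peak enrichment (left) and by distance of the peak centre from the TSS in bp (right), with the number of genes under each bar. The share called lower goes from 4.43% to 33.9% with enrichment and from 25.7% to 2.10% with distance.

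A tall peak did not by itself mark a gene that fell. The 5 strongest peaks of the list lay at the starts of 7 tested genes. Of these Mrps25 (-3.24) and St3gal2, a sialyltransferase gene (-0.95 ± 0.14), were called lower, although St3gal2 lost the call without the first 2 h library (-1.03) or the second (-0.88). Banp had the strongest peak of all, with an enrichment of 345, and stood at 310 and 266 CPM in DMSO and 375 and 355 CPM after 2 h (0.34 ± 0.13, adjusted p = 0.313, edgeR). Rnf44 (-0.14 ± 0.12), Maf1, a repressor of RNA polymerase III (-0.61 ± 0.34), Sharpin (-0.33 ± 0.31) and Gm27011 were not called either. Relative to the TSS, with upstream positions negative, the peak centre lay at -530.5 bp in Rnf44, at -560.5 bp in Sharpin and at 262.5 bp in Maf1. Peaks that overlapped a CTCF peak were at the starts of 168 bound genes, of which 24 were lower (14.3%, median -0.32), against 391 of 2191 without one (17.8%, median -0.27).

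The length of a bound gene went with the size of its change. The median log2 change was -0.44 for genes up to 5 kb, -0.36 for 5 to 20 kb, -0.20 for 20 to 50 kb, -0.13 for 50 to 100 kb and -0.09 for longer ones. The share called lower was between 14.2% and 19.8% in these 5 classes. Reads were counted over the whole gene body. No such split was made for unbound genes, so whether the trend is particular to bound genes was not tested. Chromosome 13 and chromosome 7 held the highest shares of lower genes, 4.69% of 747 and 4.49% of 1425, and chromosome 3 the lowest, 1.26% of 876.

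The ACTACA letters were searched on both strands within 250 bp of the TSS, the one nearest to the peak for bound genes and the outermost one for the others. They stood in 60.7% of the 415 bound lower genes, in 80.8% of the 26 bound higher genes and in 37.6% of the 1918 bound genes not called, against 15.1% of all 15737 protein-coding and long non-coding genes tested. CCCANNATGC stood in 108 of the 415, in 11.5% and in 15.1% of the same 3 sets and in 3.69% of all. Around the summits of the 3189 peaks, 100 bp to each side, ACTACA occurred in 37.8% and CCCANNATGC in 22.7%, and in windows moved by 5 kb in 8.03% and 0.941%. Each pattern was searched on its own, and both are in the window of Rpp30.

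The shares of calls in each direction differed with the position of the letters. Bound genes whose nearest ACTACA began 100 to 51 bp upstream of the TSS were lower in 31.9% of 298 cases and higher in 1.01%, and at 50 to 1 bp upstream in 31.4% and 2.53% of 277. Downstream by 100 to 250 bp, 15.4% of 78 genes were lower and 7.69% higher, and the median log2 change was -0.07. The 6 higher genes of that class are a small count, namely Rabl3, Ubxn8, Ttc41, Lysmd1, Gm26901 and 1700034P13Rik, grouped here after their values were seen. Of these 6, Lysmd1 lost its call whichever library was left out (1.28 to 1.75). Without ACTACA, 163 of 1364 bound genes were lower and 0.367% higher. Between 100 bp upstream and the TSS 33.2% of 364 genes with ACTACA on the strand of the gene and 28.9% of 211 with it on the opposite strand were lower, a difference that was not tested.

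**Figure D4:**
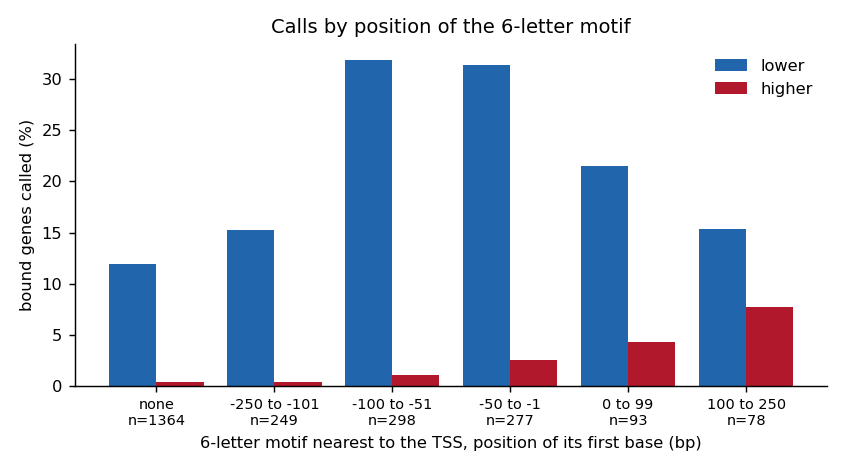
Share of ZFP143-bound genes called lower (blue) or higher (red) by the position of the nearest 6-letter motif relative to the TSS in bp, with the number of genes under each pair of bars. The share called lower is 31.9% and 31.4% in the 2 classes just upstream, and the share called higher reaches 7.69% in the class furthest downstream.

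Many peaks lay between 2 genes read in opposite directions. Among 412 such pairs of tested genes at 1 peak, neither gene was lower in 327, 1 was lower in 76 and both were lower in 9. Where 1 gene was called lower, the median log2 change was -1.30 for the more negative gene of the pair and -0.23 for the other. In some pairs the called gene was the less negative of the 2. In 25 of the 76 pairs the other gene was at or above 0. Pomt2, a protein O-mannosyltransferase gene (-2.70 ± 0.21), and Gstz1 (-1.91 ± 0.35) fell together, as did Zmat5 (-1.92 ± 0.24) with Uqcr10, a subunit of respiratory complex III (-1.81 ± 0.18). Acad8 with Thyn1 and Dcun1d2 with Tmco3 also fell as pairs. Of these 8 genes Gstz1, Thyn1 and Tmco3 lost their call whichever of the 4 libraries was left out (from -2.23 to -0.96), and Zmat5 without either 2 h library (-1.94 and -1.90).

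A gene was higher in 17 of the 412 pairs, and in 15 of them the partner was not called, with a median of -0.12 over the 17 partners. Ttc41 rose by 2.04 while its partner Hsp90b1, a chaperone of the endoplasmic reticulum, was at 179 and 226 CPM in DMSO and 173 and 218 CPM after 2 h. Trmt10a rose by 1.46 beside Mttp (0.20), Gm13778 by 2.30 beside Psmc3, a proteasome subunit gene (-0.15), and 1700034P13Rik by 2.72 beside Vcpip1 (-0.51, adjusted p = 0.113 in edgeR and 0.0262 with the replicate block, where it was called lower). In the other 2 pairs the genes moved apart. Mrpl54, a mitochondrial ribosomal protein gene, fell by 2.53 and Apba3 rose by 1.01, and Asxl1, a chromatin regulator gene, fell by 1.33 while 2500004C02Rik rose by 0.92. Apba3 had another peak nearer to its TSS, with an enrichment of 45.9 against 23.7 for the peak it shares with Mrpl54. Both higher partners lost their call without single libraries: Apba3 without the second DMSO library (0.74), the first 2 h library (1.04) or the second (0.96), and 2500004C02Rik whichever was left out (0.69 to 1.13). Mrpl54 lost its call without the first DMSO library (-2.25) or the first 2 h library (-2.18), and Asxl1 without the first 2 h library (-1.20).

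**Figure D5:**
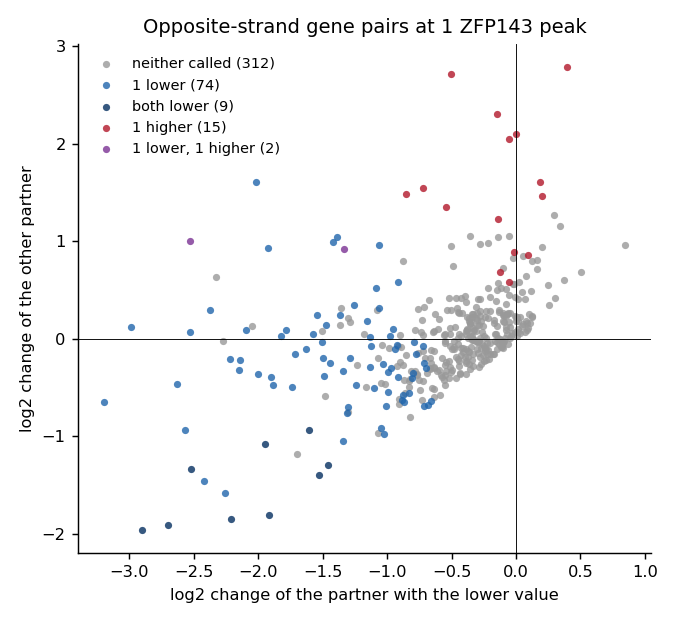
Each point is 1 of the 412 opposite-strand gene pairs at a ZFP143 peak, with the log2 change of the gene with the lower value on the horizontal axis and that of its partner on the vertical axis, coloured by the calls. In 76 pairs a single gene was lower, in 9 pairs both were, and in 17 pairs 1 gene was higher.

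Lower genes without a peak by the rule above numbered 57, and 56 of them had an annotation. Of the 56, 24 overlapped a bound lower gene on their own strand, 15 of these being small nucleolar RNAs (snoRNAs), which guide the modification of rRNA and are cut from the introns of a host gene. Another 5 had a peak by their start and were left out of the bound genes by their type, among them the pseudogenes Zfp862-ps and Ube2d-ps, and 4 began within 10 kb downstream of a bound lower gene. Of the rest, 6 had the nearest peak of the list 2 to 50 kb away and 17 had none of it within 50 kb, which does not show that ZFP143 was absent there. Cpox, an enzyme of heme synthesis, belonged to the last class, whose genes may have a peak that the list does not hold, with 15.3 and 16.3 CPM in DMSO and 2.01 and 2.21 CPM after 2 h (-2.89 ± 0.38). Its call was lost without the first 2 h library (-2.83) or the second (-2.97). Hace1, a ubiquitin ligase gene, was at 58.4 and 73.7 CPM in DMSO and 12.6 and 12.8 CPM after 2 h (-2.38 ± 0.18), and Ccdc34 at 27.6 and 32.7 against 7.55 and 7.72 CPM (-1.98 ± 0.18). Both kept the call without any 1 library. ACTACA lay upstream of Cpox and Hace1 as printed above and was not in the window of Ccdc34. Over the unbound protein-coding and long non-coding genes, 10 of the 30 lower ones (33.3%) and 10.2% of those not called held it within 250 bp of the TSS. Tbc1d31 fell by 1.54 ± 0.20 and lost its call without the second 2 h library (-1.47).

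Of 306 snoRNA genes tested 16 were lower (5.23%, against 2.61% of all tested genes), with a median over all 306 of -0.26 against 0.01 over all genes. Reads of an intronic snoRNA cannot be told apart from reads of the host intron, so their values are not independent. Snhg12, a host gene, was at 326 and 348 CPM in DMSO and 67.4 and 88.5 CPM after 2 h (-2.11 ± 0.18), and within it Snora61 fell by 2.02, Snora16a by 2.12 and Snord99 by 2.21. Snora44, also within it, had a log2 change of -1.83. Snora16a has 2 overlapping entries, both among the 16. Snhg1 went from 636 and 706 to 311 and 389 CPM (-0.94 ± 0.17), with Snord22 at -0.86. Rcc1, a nucleotide exchange factor gene, went from 643 and 706 to 422 and 475 CPM (-0.59 ± 0.12), with Snora73a at -0.76. The calls of Snhg1 (-1.11 to -0.79), Rcc1 (-0.68 to -0.51) and Snord22 (-0.95 to -0.77) were lost whichever library was left out, and that of Snora73a without the first 2 h library (-0.71) or the second (-0.82). Those of Snhg12 and of Snora61, Snora16a and Snord99 held. Per kilobase of gene length, the 6 lower genes with the highest levels in DMSO were all snoRNAs.

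The gene lists were set up with earlier results of these data known, so their counts are descriptions. Over all tested genes 2.61% were lower and 48.3% had a negative log2 change, and the counts of each list stand against these shares. Medians of a replicate pair are of log2 ratios of CPM with 0.5 added, unlike the fitted log2 changes. This draws genes of low level towards 0, so a list median can lie outside its 2 pair medians. Among the machinery of small RNAs, the RNase P and MRP subunits had 3 of 11 tested genes lower (27.3%, against 2.61% of all genes) and a median of -0.37, with all 11 below 0 (48.3% of all genes). The median was -0.56 in the first replicate pair and -0.27 in the second, and without the second DMSO library or either 2 h library 1 of the 11 was lower. Besides Rpp30, Rpp40 fell by 1.16 ± 0.20 and Pop1, which has no listed peak nearby, by 0.90 ± 0.13, both lost without the second DMSO library (-0.98 and -0.75) or without either 2 h library. RNA polymerase III had 2 of 13 subunit genes lower. Crcp, one of them, went from 81.8 and 75.6 to 11.2 and 8.80 CPM (-2.98 ± 0.20), and Polr3e fell by 0.63 ± 0.11, a call lost without the second DMSO library (-0.65), the first 2 h library (-0.66) or the second (-0.61). TFIIH had Gtf2h4 lower (-2.40 ± 0.27), and the Integrator complex, which cuts small nuclear RNAs, had Ints9 lower (-0.72 ± 0.11). The call of Ints9 was lost without the second DMSO library (-0.67), the first 2 h library (-0.75) or the second (-0.68). None of 16 genes for SNAPc, TFIIIB and TFIIIC was called at 2 h, and 1 was with the block. None of 21 tested genes for small nuclear and other small non-coding RNAs was called (median -0.11), although these genes have near-identical copies whose reads cannot be assigned with certainty.

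Nuclear genes for mitochondria were lower in small numbers. The mitochondrial ribosome had 7 of 79 genes lower (8.86%, against 2.61% of all genes) and 68 below 0, against 48.3% of all genes, led by Mrps25 and Mrpl54. Its median of -0.25 was -0.37 in the first replicate pair and -0.14 in the second. Negative medians were also found in lists with few or no bound genes, at -0.24 for replication-dependent histones (56 of 65 below 0, 4 bound) and -0.20 for glycolysis (11 of 17 below 0, 0 bound). Mrps26 (-1.62 ± 0.25) lost its call without either 2 h library (-1.66 and -1.59) and Mrps22 (-1.58 ± 0.20) kept it throughout. Subunits of respiratory complexes II to V had 8 of 44 lower (18.2%, median -0.23), and complex I 2 of 37 (5.41%, median -0.22). Their medians were -0.38 and -0.33 in the first pair and -0.15 and -0.13 in the second. Cox7c and Uqcr10 were above all others in size, and Atp5j2 (-1.18 ± 0.15) and Atp5d (-1.13 ± 0.18), both of ATP synthase, followed. Atp5j2 lost its call without the first 2 h library (-1.01), and Atp5d without that library (-1.07), the second 2 h library (-1.19) or the first DMSO library. Without 1 library the counts ran from 2 to 6 for the mitochondrial ribosome and from 2 to 5 for complexes II to V, with the lowest counts without the first 2 h library. Complex I had 0 without the second DMSO library or either 2 h library. Of 17 mitochondrial chaperones and proteases 2 were lower (11.8%), 1 of them whichever library was left out, and Clpb, a disaggregase of the intermembrane space, went from 254 and 284 to 81.3 and 80.6 CPM (-1.73 ± 0.12).

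Other mitochondrial lists had fewer calls. Against 2.61% of all genes, protein import had 3 of 40 genes lower (7.50%), translation factors 2 of 19 (10.5%), the genes for transcription, copying and RNA processing of mitochondrial DNA 2 of 31 (6.45%), and fission, fusion and cristae 1 of 18 (5.56%). Translation factors had 0 lower whichever library was left out. Import had 1 without either DMSO library and 0 without either 2 h library, the mitochondrial DNA genes had 0 without either 2 h library, and fission, fusion and cristae had 0 without the second DMSO library or either 2 h library. Timm13, an import chaperone, fell by 2.45 ± 0.40, a call lost without the first DMSO library (-2.22), the first 2 h library (-2.49) or the second (-2.41). Tfam, which packages and transcribes mitochondrial DNA and was named here after its value was seen, was at 46.8 and 47.9 CPM in DMSO and 31.3 and 32.5 CPM after 2 h. Its log2 change of -0.57 ± 0.13 (SE) had an adjusted p of 0.0602 in edgeR and of 0.0149 with the replicate block. Assembly factors of the respiratory complexes (50 genes), the pyruvate dehydrogenase and citric acid cycle genes (17) and iron-sulfur cluster assembly (20) had none called, and 4, 1 and 1 lower with the block. The 26 tested genes of mitochondrial DNA had none called and a median of 0.29, which was 0.03 in the first replicate pair and 0.23 in the second, and 3 were higher with the block and 1 without the first DMSO library.

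The zinc finger genes with a Zfp number were the largest list with calls. Of 370 tested 44 were lower (11.9%, against 2.61% of all genes) and 2 higher, and the median was -0.12. The 44 included 41 bound genes. Without 1 library between 11 and 24 of the list were lower, with 11 without the first 2 h library and 11 without the second. These genes are paralogs that share stretches of sequence, so single values carry that uncertainty.

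Several smaller groups had a member or more that fell. Genes of mannose and O-mannose glycosylation had 5 of 32 lower (15.6%, against 2.61% of all genes), 4 without the first DMSO library and 2 without any of the other 3, with Mpi, Pomt2, Gmppa (-1.93 ± 0.36) and Pomgnt2, which was at 7.31 and 11.5 CPM in DMSO and at 0.0803 and 0.479 CPM after 2 h. Pomgnt2 passed the count limit through DMSO alone and so had to differ. Gmppa lost its call whichever library was left out (-2.26 to -1.65), and Pomgnt2 without the second DMSO library (-4.53) or either 2 h library (-4.27 and -6.70). Cytosolic ribosomal protein genes had 4 of 83 lower (4.82%, against 2.61% of all genes) and 80 below 0, against 48.3% of all genes. Their median of -0.23 was -0.38 in the first replicate pair and -0.08 in the second. The list had Rpl15 (-1.06 ± 0.18) and Rplp2 (-0.91 ± 0.14) first, and at most 1 of the list was lower when a library was left out. Rpl15 lost its call without the first DMSO library (-1.01), the second (-1.10) or the first 2 h library (-0.86), and Rplp2 without the second DMSO library (-0.88), the first 2 h library (-0.81) or the second (-1.03). Ribosomal protein genes have many processed copies, so their counts carry that uncertainty. Among the partners of ZFP143, Hcfc2, which encodes a host cell factor, fell by 1.86 ± 0.23, while Hcfc1 (-0.02), Thap11 (0.09), Chd8 (0.16), Ogt (0.32) and Pou2f1 (0.19) were not called. In the list of CTCF and cohesin genes Hdac8, the deacetylase of cohesin, fell by 2.01 ± 0.21, whereas Ctcf was at -0.11 and Rad21 at 0.10. Of 38 tRNA synthetase genes 2 were lower (5.26%, against 2.61% of all genes). Fewer were lower without the second DMSO library or either 2 h library, and a member was higher without the first DMSO library. Lars, the cytosolic leucyl-tRNA synthetase gene, fell by 1.52 ± 0.15, and Hsph1, a heat shock protein gene, by 1.40 ± 0.15. Single members of further lists that were lower were Tcp1 of the CCT chaperonin (-0.97), Snapin of BLOC-1 (-2.73), Sepsecs of selenocysteine synthesis (-2.52) and Ddx23 of the tri-snRNP (-1.42). Each of these lost the call without the first 2 h library (-0.83, -3.14, -2.19 and -1.19), Tcp1, Snapin and Sepsecs also without the second DMSO library (-0.86, -2.66 and -2.11), and Snapin and Sepsecs without the second 2 h library (-2.38 and -2.99).

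Other lists had no member called, namely glycolysis (17 tested), cobalamin use (11), the proteasome (35), replication licensing (23), replication-dependent histones (65), naive pluripotency (18), formative and primed genes (7), lineage markers (11), immediate early genes (15), ATF4 targets (22) and p53 targets (19). With the replicate block 1 gene was lower in each of cobalamin use, the proteasome, immediate early genes and p53 targets, and 1 was higher among the ATF4 targets. Without the first DMSO library 3 ATF4 targets and 1 immediate early gene were higher. The medians of these lists lay between -0.42 for formative and primed genes and 0.39 for ATF4 targets. The 2 replicate pairs differed for the ATF4 targets, with medians of 0.01 and 0.70, for the formative and primed genes, with -0.01 and -0.91, for the immediate early genes, with -0.26 and 0.27, and for the replication-dependent histones, with -0.41 and -0.02. Nanog was at 230 and 365 CPM in DMSO and at 204 and 259 CPM after 2 h, Zfp42 at 602 and 803 against 753 and 770 CPM.

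Later samples of the same time course share the DMSO libraries, so their values are set side by side and not compared. Usp40 was at -5.18, -5.66 and -5.90 after 2, 6 and 24 h of dTAG, Rpp30 at -3.70, -3.63 and -2.85, and Mpi at -3.49, -3.66 and -6.26. Among the higher genes Ttc41 was at 2.04, 2.36 and 2.21 and 1700034P13Rik at 2.72, 2.78 and 2.52, whereas Acly was at 1.25, 0.78 and -0.10 and Pank3 at 1.24, 1.12 and 0.51.

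RNA-seq of total mRNA after 24 h came from other libraries with controls of their own. It was tested with edgeR's glmTreat against a fold of 1.5 at an adjusted p under 0.01, where 476 of 13925 genes (3.42%) were lower and 331 (2.38%) higher. Of the 472 genes lower at 2 h, 387 were tested there and 266 were lower (68.7% of those tested), none was higher, and 385 had a negative value, with a median of -1.22. The 266 genes were 56.4% of the genes lower at 2 h and 55.9% of those lower in RNA-seq. Genes had to exceed 10 counts in 4 of 8 RNA-seq libraries, which Usp40, Rbm41 and Zfp111 did not, and with 2 of 8 libraries 423 were tested and 301 lower. Under this looser limit a gene can pass through the 2 DMSO libraries alone, and such a gene had to differ. In a second set of RNA-seq libraries, before retinoic acid, 317 of 426 were lower (74.4%), against 3.64% of all genes tested there. Of the bound genes not called at 2 h 117 of 1696 (6.90%) were lower in RNA-seq at 24 h, with a median of -0.18.

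Of the 33 genes higher at 2 h, 28 were tested in RNA-seq, 12 were higher, 0 were lower and the median was 0.84. Ttc41 stood at 3.63, 1700034P13Rik at 3.77, Ubxn8 at 1.96 and Trmt10a at 1.81 in RNA-seq, while Acly was at 0.15 and Pank3 at -0.19. Of the snoRNA hosts, Snhg12 was at -0.16 and Snhg1 at 0.11 in RNA-seq at 24 h. For Hace1 and Cpox, the genes without a listed peak, RNA-seq gave -1.77 and -3.25.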

How the data were processed

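The authors deposited unnormalised counts for every gene of GENCODE vM25, from TT-seq and RNA-seq reads that STAR had placed on mm10. In TT-seq they kept uniquely mapped reads, dropped duplicates, split reads by strand and summed whole gene bodies in HTSeq. Each peak of the authors' single ZFP143 list carries a fold (signal relative to input), a q value as −log10, and a score with the summit's place, as deposited. The CTCF list was used for positions. Names, types and TSSs came from GENCODE vM21 on the same build, matched by identifier without version, which left 38 tested genes without annotation.

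Counts were fitted in edgeR 4.0.16 (R 4.3.3), with TMM scaling, over all 8 TT-seq libraries, contrast 2 h minus DMSO, by the robust quasi-likelihood test with Benjamini-Hochberg adjustment over 18102 genes. The common biological coefficient of variation was 17.2%, and 11.5% with the replicate block. Deviations of same-numbered libraries from their group means correlated between 0.20 and 0.62 over the 6 pairs of groups, 0.28 for DMSO and 2 h, so the numbers were taken to pair the libraries. DESeq2 1.42.0, other scalings, filters, gene sets and left-out libraries were alternatives, and the code was tested on simulated data. SE is the log2 change over the root of the F statistic. Motif letters and printed sequences came from the RefSeq GRCm38 genome, which is mm10. Sequencing depth sets the counting error, which edgeR carries in its model.

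The genes, gene lists and tests were chosen with earlier results of these data known. Named genes were Zfp143, the 14 called lower with the greatest decrease and the 8 called higher with the greatest increase (mean count of at least 100, both 2 h libraries beyond both DMSO libraries), the 6 lower genes with the highest level per kb, up to 4 called members of each list, genes at the 5 strongest peaks and bound genes with strong peaks that were not called, lower genes without a peak, cell type markers and examples of shared peaks. Others are marked where named. Signal tracks, chromatin contact data and the other time points were not analysed here beyond the values given.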

Additional observations from a re-analysis of the deposited data

How the results depend on the processing

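The 472 lower genes became 716 without a count filter and 736 with the replicate block. As a share of the tested genes, 2.61% were lower, and between 0.679% and 1.78% when 1 of the 4 libraries was left out. Scaling by DESeq2 size factors or library size, DESeq2 itself, stricter filters, the 4 libraries alone with or without the block and removal of overlapping genes gave between 379 and 683. The 33 higher genes became 53 in DESeq2, 138 without a filter, 21 with the 4 libraries alone, 113 with the replicate block and 78 with both, and between 10 and 41 without 1 library. The cause was not tested, except that leaving out a library leaves an arm with 1 sample, which is assumed to vary like the other groups, and that dropping the filter raised the genes tested to 36394. Bound lower genes ran from 112 to 287 without 1 library, and bound higher genes from 9 to 17. The latter were 42 without a filter, 17 with the 4 libraries alone and 47 with the replicate block. Narrower definitions of a bound gene gave 374 to 403 lower. No called gene named here turned its direction under the alternatives run. The 2 groups of every called gene did not overlap, so this was close to fixed. With 2 libraries per group, a missed call does not show that a gene stayed level.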

Other observations

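Genes of sterol synthesis and its regulators were gathered into a list of 29 after their values had been seen, so the list has no test. Of the 29, 28 had a positive log2 change, against 51.7% of all tested genes (median 0.49, against 0.01). The test called 5 of them higher, against 0.182% of all genes, and 12 with the replicate block, against 0.624%. The medians of the replicate pairs were 0.38 and 0.50. The called genes were Acly (1.25), Lss, which closes the sterol ring (0.68), Insig1, which retains the sterol sensor complex (0.65), Aacs (0.57) and Msmo1 (0.57). A peak lay at Acly and at 2 other members of the list. Calls other than that of Acly were lost when single libraries were left out: Lss (0.63 to 0.75), Insig1 (0.52 to 0.76) and Msmo1 (0.57 to 0.59) without any 1 of the 4, and Aacs without the second DMSO library (0.48) or either 2 h library (0.56 and 0.58). In RNA-seq after 24 h Lss was at 0.36, Insig1 at 0.03, Msmo1 at 0.19 and Aacs at -0.13.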
